A study of Mus musculus with 68 samples.

Results

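The 10 genes described here encode subunits of Polycomb repressive complex 2 (PRC2), and they were chosen by symbol from the 27179 Entrez Gene identifiers of the count table. All 10 symbols matched 1 identifier each, and all 10 passed the filter on low counts that left 14897 genes for testing. RNA was sequenced from 17 cultures of mesenchymal stromal cells, the plastic-adherent stromal fraction grown from marrow and bone, taken here from the long bones of mice. Every mouse carried Prrx1-Cre (the labels write both Prxx-1-Cre and Prrx-1-Cre), a recombinase expressed in the early limb mesenchyme rather than in blood cells. Controls, labelled WT, had intact Ezh2 alleles (Ezh2+/+), and heterozygotes, labelled Het, had 1 floxed allele (Ezh2fl/+). At 3 months there were 4 WT cultures (WT 3M: S3, S4, S5, S12) and 3 Het cultures (Het 3M: S8, S10, S14). At 12 months there were 4 WT cultures (WT 12M: S2, S6, S7, S13) and 6 Het cultures (Het 12M: S1, S9, S11, S15, S16, S17). The submitters' design text speaks of 3 per group, and all 17 labelled cultures were used. The labels do not say whether each culture came from 1 mouse, so the p-values below measure the spread between these cultures.

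PRC2 places methyl groups on lysine 27 of histone H3, a mark of silenced developmental genes. EZH2 or its paralog EZH1 is the methyltransferase, EED and SUZ12 hold the enzyme in an active core, and RBBP4 and RBBP7 are histone-binding WD40 proteins that also serve in other chromatin complexes. JARID2 and AEBP2 form one kind of accessory module, and the Polycomb-like proteins MTF2 and PHF19 form another, which bring the core to chromatin. In many tissues EZH2 is the main enzyme of dividing cells and EZH1 that of resting cells. In mesenchymal stromal cells EZH2 is known for holding back osteogenic genes.

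The promoters of 4 members are shown because the levels of Ezh2 and Phf19 gave the largest fitted slopes on a proliferation score (below), Suz12 is the other member whose window held one of the words searched, and Ezh1 serves as the comparison. Sequences are from RefSeq on GRCm38.p6, 5′ to 3′ on the gene's strand, from 250 bases before to 20 bases after the annotated start. Capitals mark an 8-base E2F word, one of TTTCCCGC, TTTCGCGC, TTTGCCGC and TTTGGCGC or their reverse complements. E2F factors drive many genes of the S and G2 phases.
Ezh2 (chr6:47595011-47595280, minus strand): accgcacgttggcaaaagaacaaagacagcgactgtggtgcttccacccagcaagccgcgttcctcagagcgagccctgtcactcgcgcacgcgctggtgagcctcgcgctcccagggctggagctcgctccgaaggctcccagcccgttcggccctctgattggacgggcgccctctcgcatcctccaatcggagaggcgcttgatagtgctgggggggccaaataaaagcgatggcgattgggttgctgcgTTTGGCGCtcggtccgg
Phf19 (chr2:34913957-34914226, minus strand): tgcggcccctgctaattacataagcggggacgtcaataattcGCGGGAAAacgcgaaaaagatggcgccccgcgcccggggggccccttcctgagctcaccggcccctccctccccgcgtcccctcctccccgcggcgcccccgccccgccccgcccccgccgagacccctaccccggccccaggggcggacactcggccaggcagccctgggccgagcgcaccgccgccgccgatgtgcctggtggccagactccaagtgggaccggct
Suz12 (chr11:79992856-79993125, plus strand): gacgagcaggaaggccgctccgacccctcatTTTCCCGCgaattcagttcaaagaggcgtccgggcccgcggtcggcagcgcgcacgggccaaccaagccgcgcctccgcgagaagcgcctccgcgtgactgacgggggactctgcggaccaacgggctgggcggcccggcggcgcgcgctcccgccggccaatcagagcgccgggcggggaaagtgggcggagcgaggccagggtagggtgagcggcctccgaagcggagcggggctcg
Ezh1 (chr11:101226444-101226713, minus strand): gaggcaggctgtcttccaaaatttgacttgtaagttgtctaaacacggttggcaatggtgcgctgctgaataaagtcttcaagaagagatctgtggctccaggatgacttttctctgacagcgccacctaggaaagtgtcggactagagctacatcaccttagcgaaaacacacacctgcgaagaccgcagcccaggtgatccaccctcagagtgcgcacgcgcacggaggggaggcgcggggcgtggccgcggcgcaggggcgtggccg
The words did not overlap one another in these windows. For Ezh2 and Phf19 the start used lies inside the gene's outermost annotated end, so other starts exist. In the full window of 300 bases, which runs to 50 bases after the start, such a word was present in 3 of 10 members (30% against 2.605% of 27025 genes with a promoter in the table). It was present in 4 of the 16 proliferation markers with a promoter there (25%). In Ezh2 the word began at base 4 after the start, and in Suz12 and Phf19 it lay at -219 and -208. No word was found in the windows of Ezh1, Eed, Rbbp4, Rbbp7, Jarid2, Aebp2 and Mtf2, which says only that these letters are not there. The bases after the start used for Rbbp7 were not found near the start of its annotated transcripts, so that window is less certain. A match is a description of sequence and no evidence of binding.

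Depth ran from 13687876 to 28597221 counts per culture, and member counts from 16 (Phf19 in S5) to 4746 (Rbbp4 in S17). The lowest of these, 0.692 counts per 1000000 (CPM) of the library total, has an exact 95% Clopper-Pearson interval of 0.395 to 1.12, which covers counting error only. The 12 stromal markers summed to between 8465 (S15) and 32530 CPM, with no marker at 0 in any library. Markers of other cells varied. The 10 macrophage markers summed to 33207 CPM in Het 12M S9 against at most 2646 elsewhere, and the 6 Schwann and neural crest markers to 460 CPM in WT 12M S6 against at most 107. In Het 12M S15 all 6 endothelial markers were at 0, the macrophage sum was the lowest (34.8 CPM) and Mki67, a marker of cycling cells, was at 4.22 CPM. Mki67 was lower still in Het 12M S11, at 2.44 CPM. Sex-linked transcripts did not match the labelled sex in the WT 12M libraries, while the 13 others matched. S2 and S13 (labelled male) had high Xist and Y-linked genes near 0, and S6 (labelled female) had the reverse. S7, labelled female, carried both, with Xist at 78.8 and a Y-linked mean of 33.7 CPM of the library total, and whether it holds cells of more than 1 mouse was not tested. "WT 12M" below means the libraries that carry that label. S8 and S10 were the most alike pair, with a chi-square per degree of freedom of 17.6 against 39.2 for the next, and whether they share a mouse was not tested.

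Ezh2 (Entrez 14056, mm10 chromosome 6, 47530274 to 47595270, minus strand) is the targeted gene. Levels within a gene are CPM after TMM scaling, edgeR's trimmed mean method. In WT 3M it stood at 13.6, 13.4, 14.3 and 9.17 CPM in S3, S4, S5 and S12, and in Het 3M at 11.8, 12.8 and 8.47 CPM in S8, S10 and S14. In WT 12M it stood at 7.64, 35.7, 13.1 and 22.8 CPM in S2, S6, S7 and S13. In Het 12M it ran from 8.62 (S11) through a median of 18.2 to 25.2 CPM (S15). The genotypes overlapped at both ages, and WT 12M held both the lowest and the highest library of the series. Group means were 12.6 ± 2.32 (SD, n = 4), 11.1 ± 2.29 (n = 3), 19.8 ± 12.3 (n = 4) and 17.7 ± 5.52 CPM (n = 6) for WT 3M, Het 3M, WT 12M and Het 12M.

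**Figure D1:**
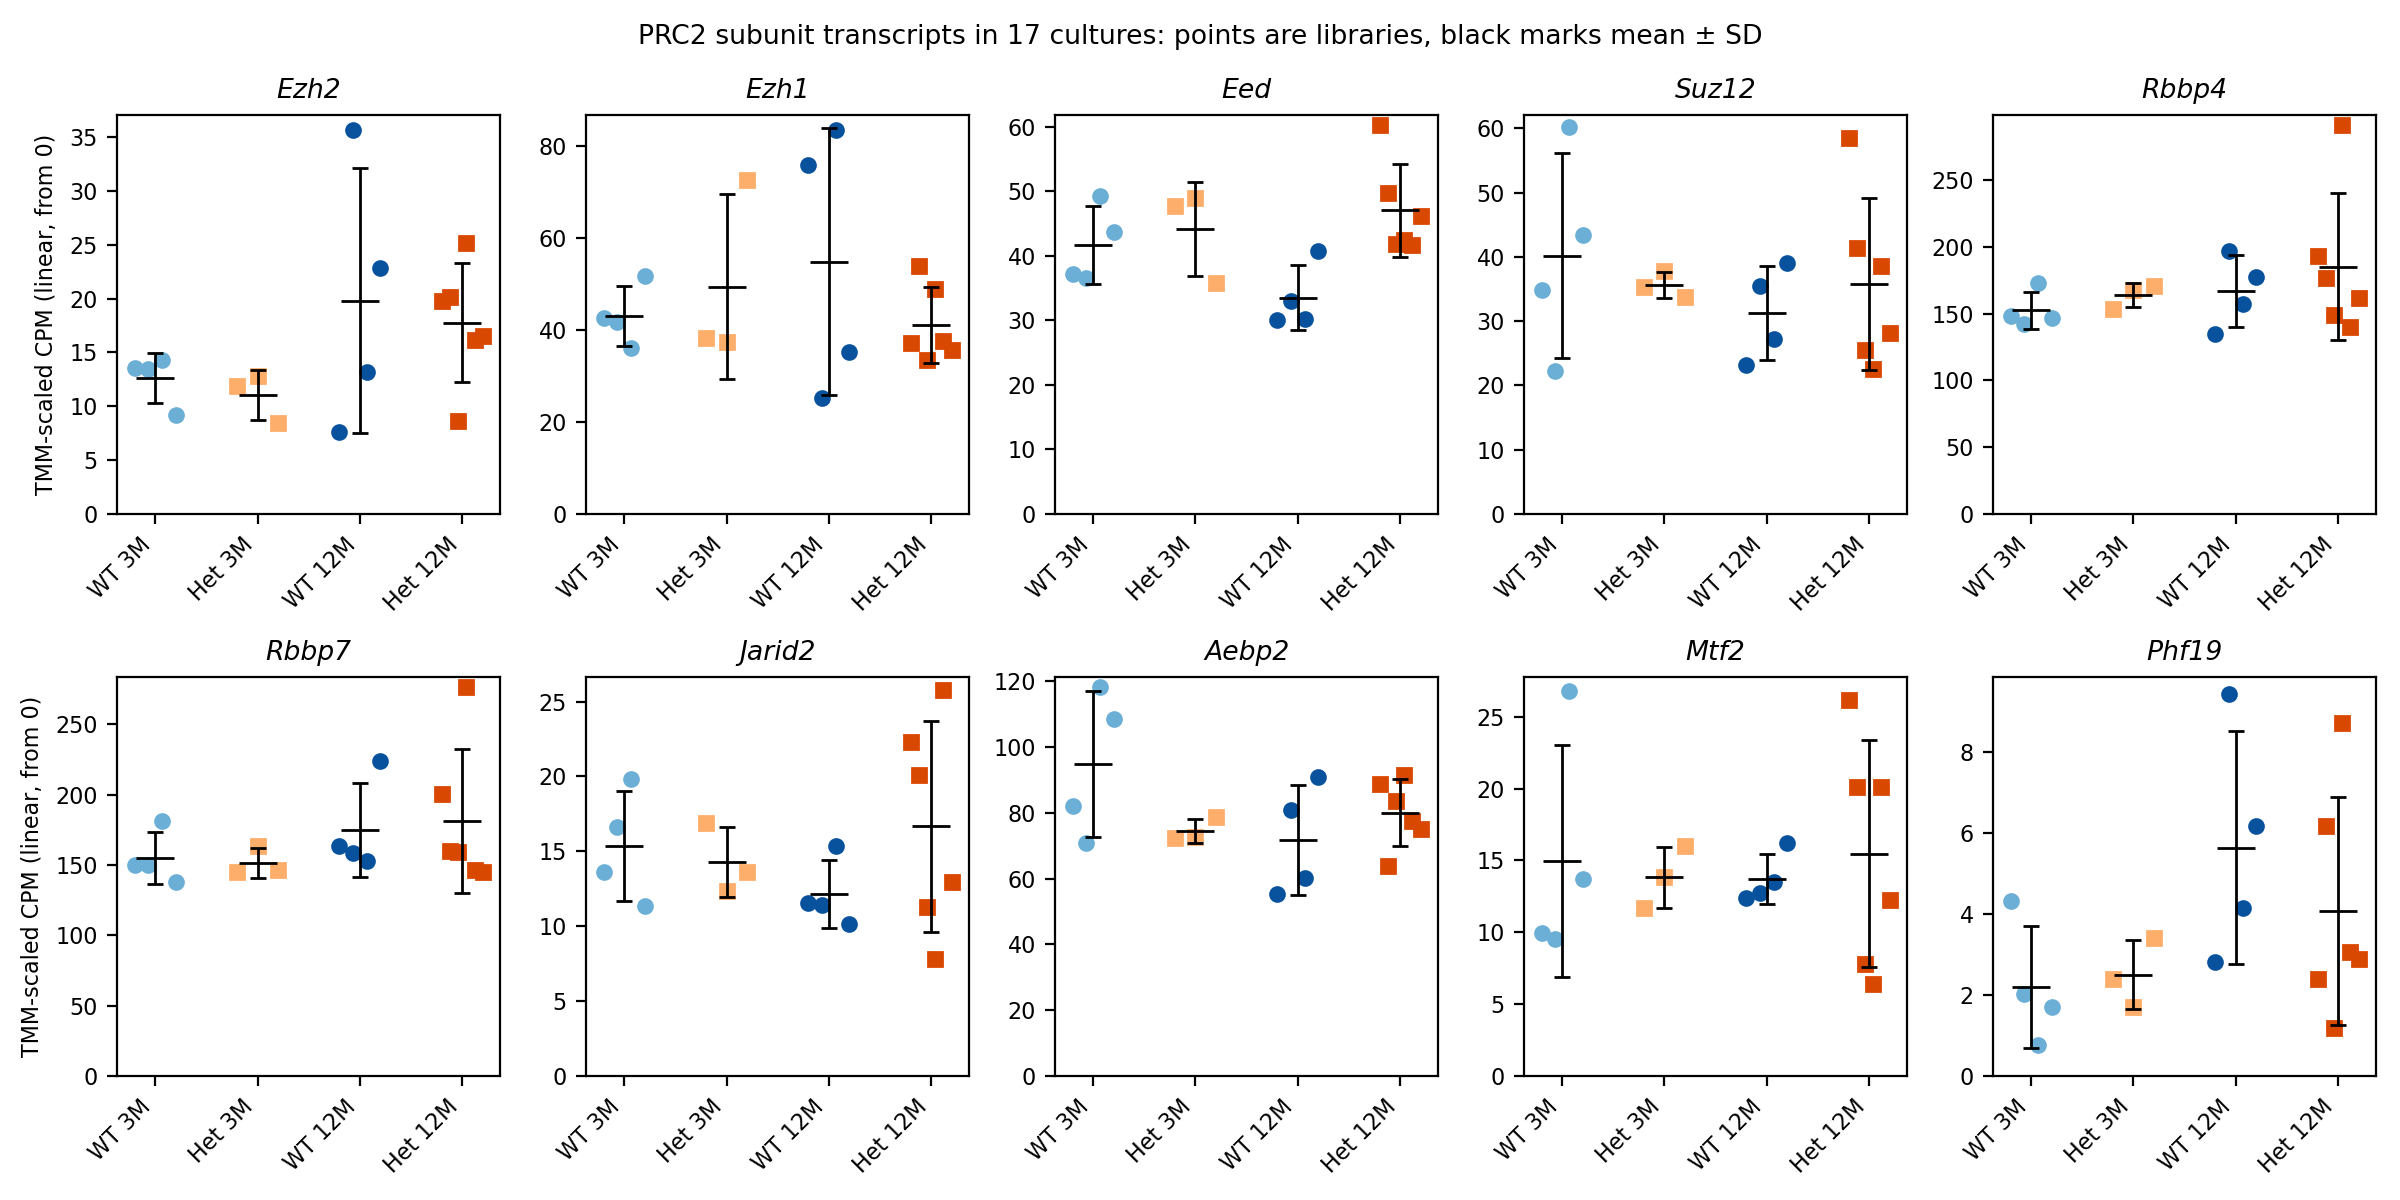
TMM-scaled CPM (vertical, linear from 0, a separate scale per gene) of the 10 genes in the 4 groups (horizontal); points are libraries, black marks the mean ± SD. The 4 WT 12M libraries of Ezh2 spread from 7.64 to 35.7 CPM, and only for Eed do the Het 12M points all lie above the WT 12M points.

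The fitted log2 difference of Ezh2 between Het and WT was -0.19 ± 0.43 (SE) at 3 months, with a 95% confidence interval of -1.09 to 0.71 (edgeR adjusted p = 1.00). At 12 months it was -0.16 ± 0.36, with an interval of -0.91 to 0.59 (edgeR adjusted p = 0.924). A 2-fold lower level, -1 on this scale, lies inside the first interval and just outside the second. Gene-level counts can include reads from exons outside the floxed segment, so they are not a measure of recombination. Without WT 12M S6, the library with the high Schwann and neural crest sum, the 12-month difference was 0.29, and without S6, S9 and S15 it was 0.083 ± 0.35. Over all fits without 1 library it ran from -0.43 to 0.29. The place of -1 just outside the 12-month interval therefore holds for all 17 cultures together and may not hold without 1 of them. A lower level of Ezh2 transcript in heterozygotes was not detectable with this number of cultures, and the sign at 12 months rests on 1 library.

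Between ages, Ezh2 was fitted 0.65 ± 0.39 higher on the log2 scale at 12 months in WT (interval -0.18 to 1.48, edgeR adjusted p = 0.648). In Het the difference was 0.68 ± 0.40 (interval -0.17 to 1.54, edgeR adjusted p = 0.946). Neither passed, and without S6, S9 and S15 these differences were 0.20 and 0.46. The interaction of genotype and age was 0.03 ± 0.55 (interval -1.14 to 1.202, edgeR adjusted p = 0.999).

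Ezh1 (chromosome 11, 101191115 to 101226463, minus strand), the paralogous methyltransferase, was more even in WT 3M and Het 12M than in the other groups. In WT 3M it stood at 42.6, 41.6, 36.1 and 51.7 CPM (S3, S4, S5, S12), and in Het 3M at 38.3, 37.4 and 72.6 CPM (S8, S10, S14). In WT 12M it stood at 75.8, 25.2, 83.4 and 35.1 CPM (S2, S6, S7, S13), and in Het 12M between 33.5 and 54.0 with a median of 37.3 CPM. The WT 12M libraries fell into a high pair, S2 and S7, and a low pair, S6 and S13, and the low pair for Ezh1 was the high pair for Ezh2. The log2 differences were 0.20 ± 0.36 (Het against WT, 3 months), -0.42 ± 0.30 (Het against WT, 12 months), 0.35 ± 0.33 (age in WT) and -0.26 ± 0.33 (age in Het), with edgeR adjusted p of at least 0.718.

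To compare levels between genes, CPM was divided by the exon length of each gene in kilobases (RPKM). By this measure Ezh1 averaged 6.22 ± 2.21 RPKM and Ezh2 2.37 ± 1.08 RPKM over the 17 cultures. The ratio of Ezh2 to Ezh1 in RPKM ran from 0.112 (WT 12M S2) to 1.58 (WT 12M S6) and was above 1 in 1 of 17 cultures, S6. At 3 months its mean was 0.338 ± 0.102 (SD, n = 4) in WT and 0.286 ± 0.136 (n = 3) in Het, and at 12 months 0.647 ± 0.678 (n = 4) and 0.478 ± 0.114 (n = 6). With the longest coding transcript as the length, the ratio of S13 was 0.9805 in place of 0.724, and S6 was again the 1 culture above 1. The ratio is a description of these cultures and was not tested.

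**Figure D2:**
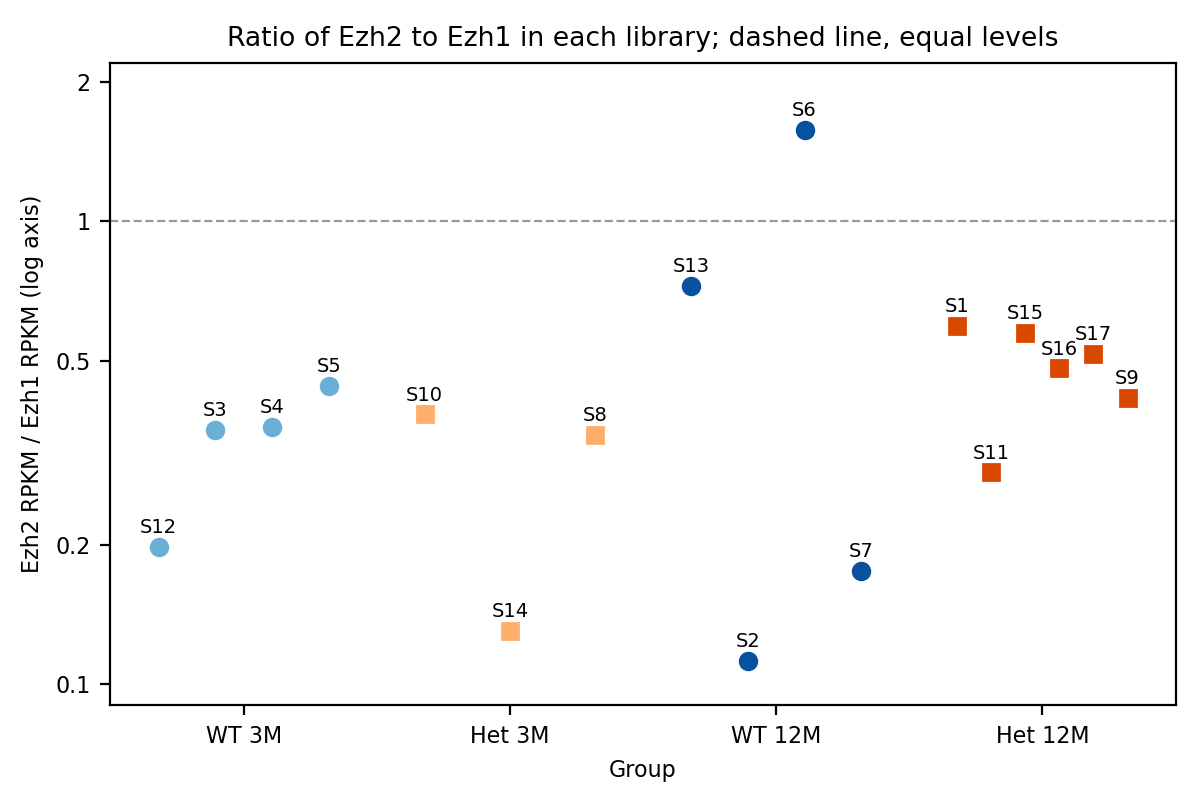
Ratio of Ezh2 to Ezh1 in RPKM (vertical, log axis) for each library, labelled by its number, in the 4 groups (horizontal); the dashed line marks equal levels. WT 12M spans 0.112 to 1.58, wider than the 3 other groups, and S6 alone is above the line.

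Eed (chromosome 7, 89954654 to 89980976, minus strand) encodes the WD40 subunit that reads the methyl mark and stimulates the enzyme. It was the 1 member whose Het 12M and WT 12M libraries did not overlap. In WT 12M it stood at 30.1, 33.0, 30.2 and 40.8 CPM in S2, S6, S7 and S13, and in Het 12M at 41.7 (S16) to 60.2 CPM (S1), with a median of 44.3 CPM. The gap between S13 and S16 was small beside the range within either group. The log2 difference was 0.49 ± 0.17 (interval 0.14 to 0.84) and did not pass after adjustment (edgeR adjusted p = 0.425). Over all alternatives the adjusted p ran from 0.163 (DESeq2) to 0.862 (the 2 groups fitted alone), and the difference from 0.40 (without S1) to 0.58. Of all genes tested, 1.32% had non-overlapping groups in this comparison. At 3 months Eed stood at 36.6 to 49.3 CPM in WT and 35.7 to 48.9 CPM in Het, overlapping almost fully, with a log2 difference of 0.08 ± 0.19.

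Suz12 (chromosome 11, 79993106 to 80034123, plus strand), the scaffold of the core, showed no separation of groups. In WT 3M it stood at 34.8, 22.3, 60.2 and 43.4 CPM (S3, S4, S5, S12) and in Het 3M at 35.4, 37.9 and 33.8 CPM (S8, S10, S14). In WT 12M it stood at 23.3, 35.5, 27.2 and 39.0 CPM (S2, S6, S7, S13), and in Het 12M between 22.5 and 58.5 with a median of 33.4 CPM. Its log2 differences ran from -0.36 ± 0.31 (age in WT) to 0.20 ± 0.29 (Het against WT, 12 months).

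The histone-binding subunits Rbbp4 (chromosome 4, 129307100 to 129335370, minus strand) and Rbbp7 (chromosome X, 162760372 to 162779090, plus strand) were the most highly expressed members per length, at 19.4 and 57.9 RPKM. Rbbp4 ran from 134 CPM (WT 12M S2) to 291 CPM (Het 12M S15), and Rbbp7 from 138 CPM (WT 3M S12) to 277 CPM (S15). For both genes S15 was the highest library of the series. Their log2 differences lay between -0.03 and 0.26 in the 4 group comparisons, with SEs of 0.20 to 0.23. Rbbp4 shares 2284 bases with the neighbouring gene Sync, which had 9 to 209 counts per culture. How reads in overlaps or with several alignments were assigned is not given in the sources used here, so counts of these near relatives are less certain.

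Of the accessory subunits, Jarid2 (chromosome 13, 44730774 to 44921643, plus strand) stood at 10.2 to 15.4 CPM in WT 12M and at 7.78 (S15) to 25.8 CPM (S16) in Het 12M. Its log2 difference there was 0.46 ± 0.30 (interval -0.18 to 1.10, edgeR adjusted p = 0.699). Aebp2 (chromosome 6, 140622454 to 140678472, plus strand), a zinc finger partner of JARID2, stood at 82.1, 70.8, 118 and 109 CPM in WT 3M (S3, S4, S5, S12). In Het 3M it stood at 72.2, 72.6 and 78.6 CPM, within the WT range. Its log2 difference was -0.35 ± 0.22 for genotype at 3 months (edgeR adjusted p = 1.00) and -0.40 ± 0.20 for age in WT (edgeR adjusted p = 0.626).

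Mtf2 (chromosome 5, 108065660 to 108109219, plus strand), which binds unmethylated CpG-rich DNA, varied within groups more than between them. It stood at 9.92, 9.56, 26.8 and 13.7 CPM in WT 3M (S3, S4, S5, S12), at 11.7 to 15.98 CPM in Het 3M and 12.4 to 16.2 CPM in WT 12M. In Het 12M it ran from 6.41 (S15) to 26.2 CPM (S1). The group means lay between 13.7 and 15.5 CPM, closer together than the libraries of WT 3M or Het 12M.

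Phf19 (chromosome 2, 34893752 to 34914353, minus strand), the other Polycomb-like member, was the lowest and the most variable, at 0.738 ± 0.500 RPKM. It stood at 4.30, 2.02, 0.769 and 1.70 CPM in WT 3M (S3, S4, S5, S12) and at 2.39, 1.70 and 3.41 CPM in Het 3M (S8, S10, S14). In WT 12M it stood at 2.81, 9.41, 4.13 and 6.18 CPM (S2, S6, S7, S13), and in Het 12M between 1.18 (S11) and 8.70 CPM (S15) with a median of 2.97 CPM. The ages overlapped in both genotypes. The log2 difference between ages in WT was 1.35 ± 0.61 (interval 0.07 to 2.64, edgeR adjusted p = 0.592), and in Het 0.70 ± 0.62 (edgeR adjusted p = 0.946). The Het difference was -0.077 without S6, S9 and S15.

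**Figure D3:**
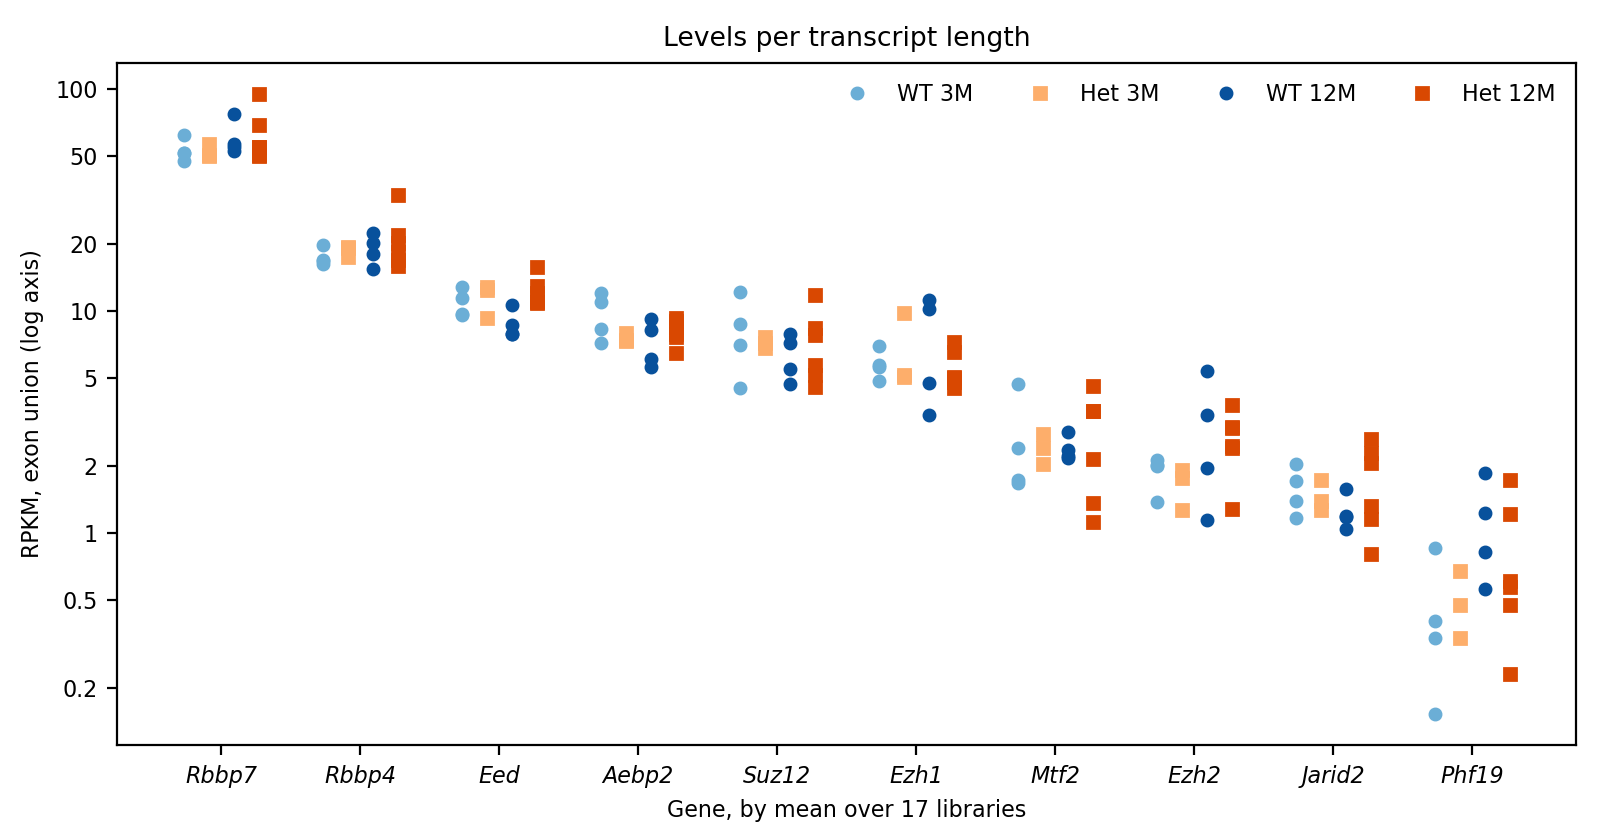
RPKM by exon length (vertical, log axis) of the 10 genes, ordered by their mean over 17 libraries (horizontal), with 1 point per library and a column for each group. Means fall from 57.9 for Rbbp7 to 0.738 for Phf19, and the groups overlap within each gene.

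In RPKM the order after Rbbp7 and Rbbp4 was Eed (10.99), Aebp2 (8.18), Suz12 (7.23), Ezh1 (6.22), Mtf2 (2.57), Ezh2 (2.37), Jarid2 (1.53) and Phf19. Neighbours from Aebp2 to Ezh1, and from Mtf2 to Jarid2, differed by less than the larger of their SDs over cultures. The order depends on the length used: with the longest coding transcript, Ezh2 was at 5.69 RPKM and passed Mtf2 (3.61), and Ezh1 (10.996) passed Suz12 (8.17). Within a gene, the highest library exceeded the lowest 12.2-fold for Phf19, 4.67-fold for Ezh2 and 4.18-fold for Mtf2, against 2.00-fold for Eed. The coefficient of variation over the 17 cultures was 67.8% for Phf19, 45.4% for Ezh2 and 18.8% for Eed, beside a median of 38.5% over all genes tested.

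No member passed the threshold of 0.05 in any of the 5 group comparisons, by edgeR or by DESeq2. For Het against WT at 3 months, 0 of 10 members were called, with 0% of all genes called (percent of 14897). At an unadjusted p under 0.05 there were 0 members beside 1.6% of all genes, and 0 members had non-overlapping groups beside 6.78%. The median log2 difference of the members was -0.07, beside -0.02 over all genes, and 4 of 10 were above 0. For Het against WT at 12 months, 0 members were called, beside 0% of all genes. At an unadjusted p under 0.05 there was 1 member, Eed, beside 8.36%, and Eed was also the 1 member whose groups did not overlap. The median was 0.16 beside 0.05, with 7 of 10 above 0. DESeq2 called 106 genes here and no member.

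For 12 against 3 months in WT, 0 members were called beside 0% of all genes. At an unadjusted p under 0.05 there was 1, Phf19, beside 8.22%, and 0 members had non-overlapping ages beside 8.1%. For 12 against 3 months in Het, 0 members were called beside 0%, with 0 at an unadjusted p under 0.05 beside 3.28% and 0 non-overlapping beside 1.91%. Here 9 of 10 members were fitted above 0, with a median of 0.17 beside 0.07 over all genes, and Ezh1 was the exception. For the interaction, 0 members were called beside 0%, with 0 at an unadjusted p under 0.05 beside 5.76%. DESeq2 called 0, 53, 1 and 35 genes at 3 months, by age in WT, by age in Het and for the interaction, and no member in any. At an unadjusted p under 0.05 the members' share lay near or under that of all genes in each comparison. The comparisons share groups of libraries and so are not independent of each other.

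**Figure D4:**
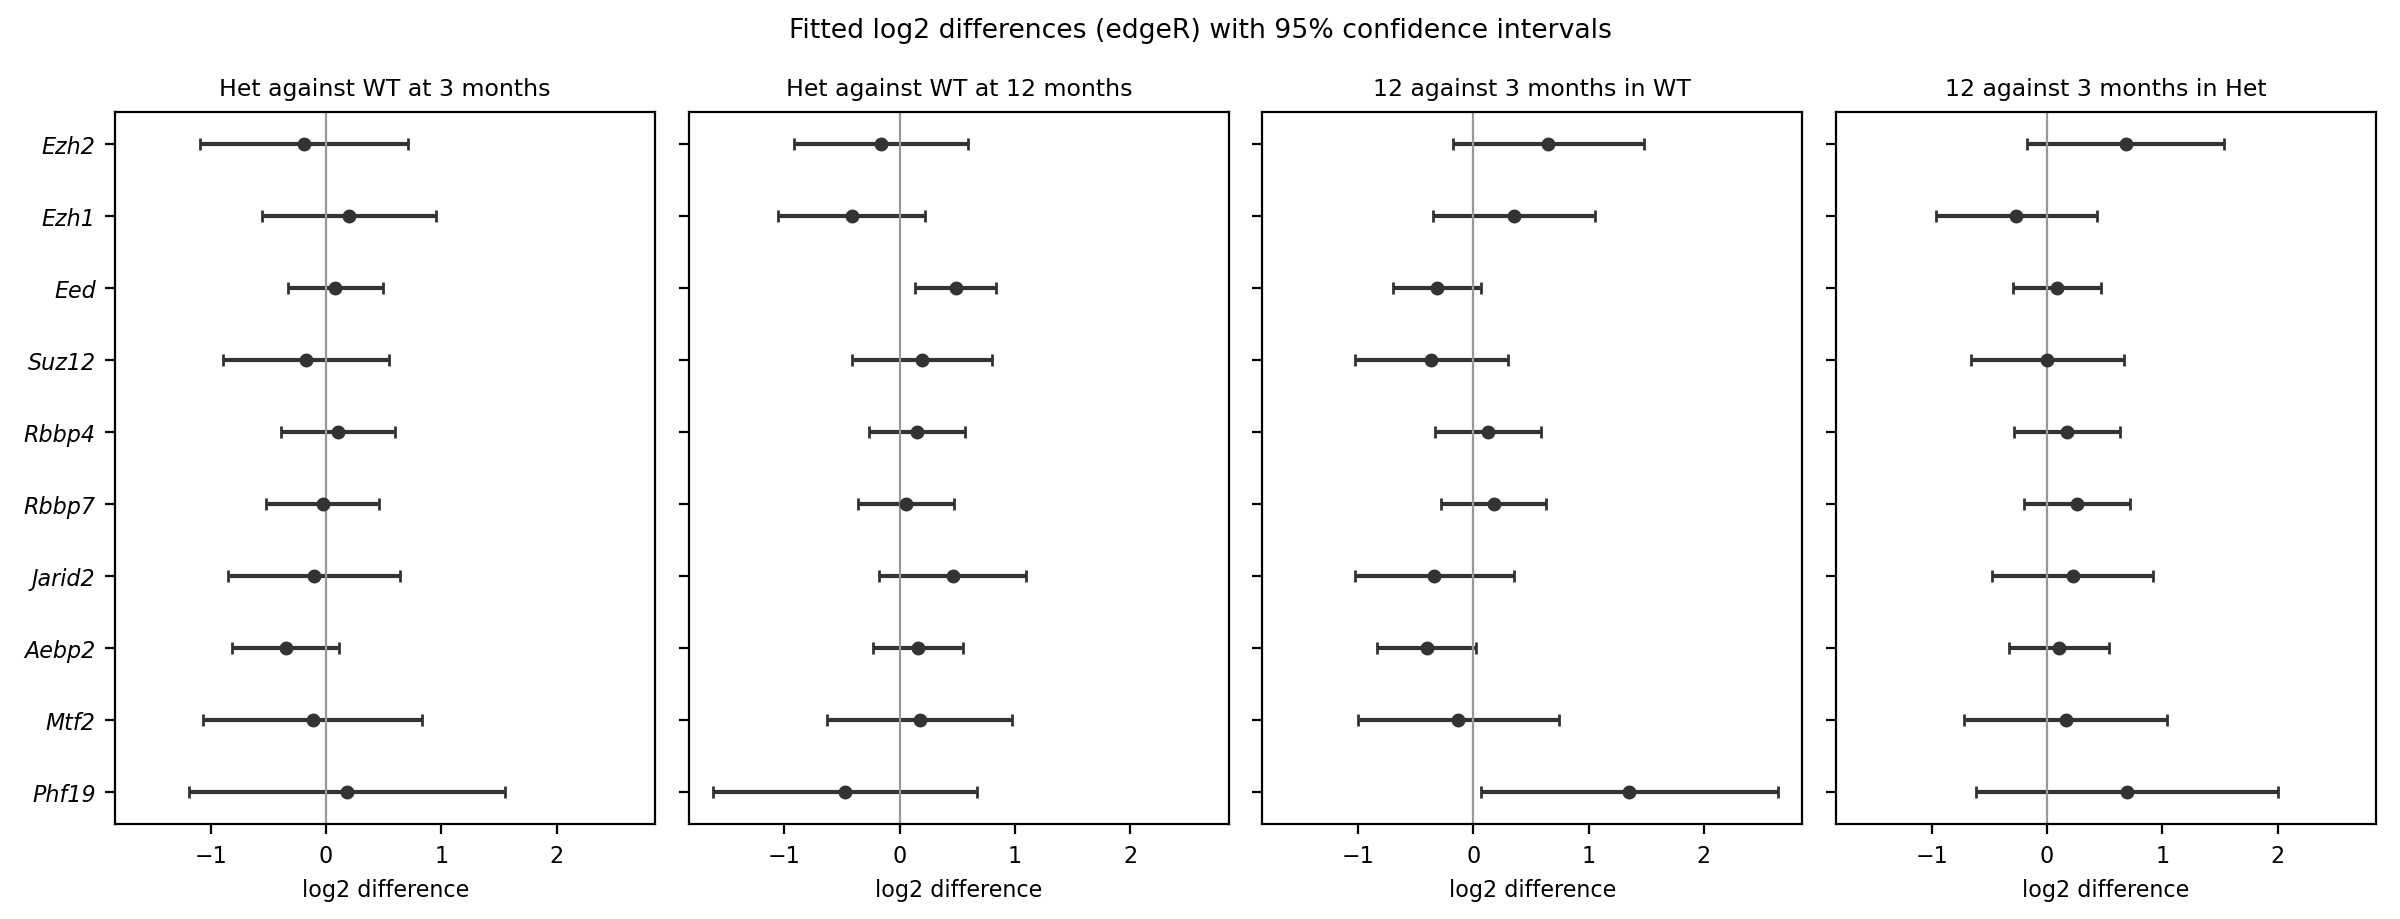
Fitted log2 differences (horizontal) with 95% confidence intervals for the 10 genes (vertical) in 4 comparisons, 1 panel each. The unadjusted intervals exclude 0 for Eed at 12 months (0.14 to 0.84) and for Phf19 by age in WT (0.07 to 2.64), and neither difference passed after adjustment.

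Ezh2 rose with a score of proliferation markers across the cultures. Each culture was scored as the mean log2 CPM of 20 proliferation markers, none of them a PRC2 gene, and the slope on this score was fitted with a term for each group. Ezh2 changed by 0.69 ± 0.12 log2 units per unit of score (interval 0.43 to 0.96, edgeR adjusted p = 0.00925). It was the 1 member of 10 called, beside 1.01% of all genes. At an unadjusted p under 0.05 there were 3 members, Ezh2, Ezh1 and Phf19, beside 7.69% of all genes. Of the 151 genes called, 149 rose and 16 were the score's own markers.

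The scores behind this slope were widest apart in WT 12M, at 5.69 (S6), 5.36 (S13), 3.44 (S7) and 3.18 (S2), in the same order as Ezh2 at 35.7, 22.8, 13.1 and 7.64 CPM. The mean score at 3 months was 3.53 ± 0.49 (SD, n = 4) in WT and 3.67 ± 0.22 (n = 3) in Het, and at 12 months 4.41 ± 1.29 (n = 4) and 4.09 ± 0.59 (n = 6). In Het 12M the lowest score, 2.95 in S11, went with the lowest Ezh2 of that group, 8.62 CPM. In WT 3M the orders differed: S5 had the lowest score (3.19) and the highest Ezh2 (14.3 CPM), and S3 had the highest score (4.24) with Ezh2 at 13.6 CPM. The slope kept its sign in every alternative run, and its call was lost without WT 12M S2 (0.61, edgeR adjusted p = 0.136), without WT 12M S6 (0.62, edgeR adjusted p = 0.1505) and without S6, S9 and S15 (0.59, edgeR adjusted p = 0.125). With Mki67 alone in place of the score it was 0.18 (edgeR adjusted p = 0.402). The markers were mixed in S15. Mki67 was at 4.22, Cenpe at 3.71 and Ccne2 at 1.09 CPM of the library total, each lower only in S11. Cdk1 was at 88.6 and Mcm6 at 91.6 CPM of the library total, and Ezh2 at 25.2 CPM after TMM scaling.

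Phf19 had a slope of 0.84 ± 0.25 (interval 0.31 to 1.37) that did not pass in edgeR (adjusted p = 0.227) and passed in DESeq2 (adjusted p = 0.0359), which called 2 members beside 2.23% of all genes. The slope of Ezh1 was negative at -0.38 ± 0.16 (interval -0.72 to -0.05, edgeR adjusted p = 0.558). The other 7 slopes lay between -0.02 (Jarid2) and 0.21 (Suz12), and 8 of 10 were above 0 with a median of 0.11, beside 0.03 over all genes. Cultures are mixtures, so fewer cells of a type and less RNA per cell cannot be told apart in any of these levels.

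**Figure D5:**
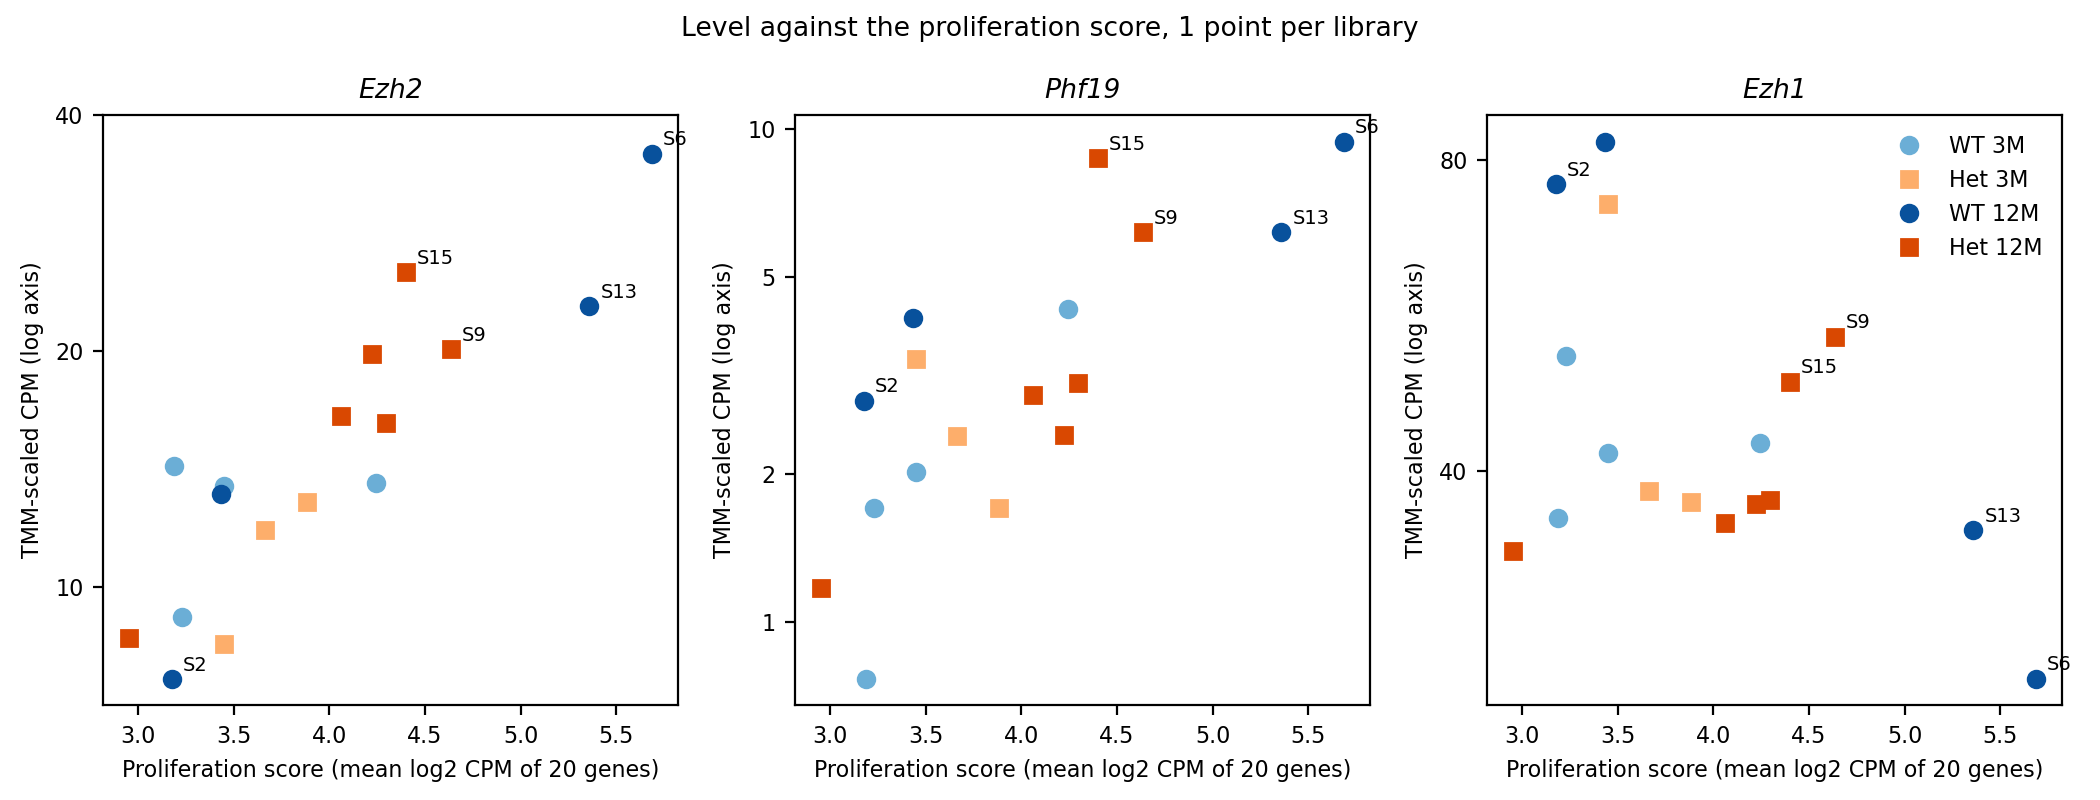
TMM-scaled CPM (vertical, log axis) of Ezh2, Phf19 and Ezh1 against the proliferation score (horizontal, mean log2 CPM of 20 genes), 1 point per library, coloured by group. Ezh2 climbs from 7.64 CPM in S2 to 35.7 CPM in S6, where Ezh1 is at its lowest, 25.2 CPM.

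By edgeR, 0 of the 20 proliferation markers passed in any group comparison, and the scores of the groups overlapped. All 20 markers were fitted higher at 12 than at 3 months in WT (median log2 difference 1.27, Rrm2 at 0.0014). By edgeR 0 were called, and 12 were at an unadjusted p under 0.05, beside 8.22% of all genes. In WT 12M they summed to 1294 and 1150 CPM of the library total in S6 and S13. The sums in S2 and S7 were 247 and 267 CPM, within the WT 3M range of 243 to 519 CPM. All 20 were also fitted higher by age in Het (median 0.64), with 0 at an unadjusted p under 0.05. With the score as an added term, the age difference of Ezh2 in WT changed from 0.65 to -0.18 ± 0.26, and that in Het from 0.68 to 0.34 ± 0.24. The genotype difference of Ezh2 became -0.32 ± 0.25 at 3 months (interval -0.86 to 0.22) and 0.21 ± 0.22 at 12 months (interval -0.25 to 0.67). With the score in the model both intervals exclude a 2-fold lower level at an equal score, while without it the 3-month interval included that level. The score is made of markers that rise with Ezh2, so this fit can take up part of an Ezh2 difference. It cannot decide whether the transcript was 2-fold lower. None of these differences passed (edgeR adjusted p of at least 0.819). The part of proliferation in the group differences was not tested beyond this fit.

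Across the 17 cultures, which share library depth and scaling with the score, the genes whose log2 CPM was most like Ezh2 were Melk (Pearson r = 0.93), Racgap1 (0.93), Ncaph (0.92), Ccna2 (0.92), Dlgap5 (0.92), Ska3 (0.91), Kif23 (0.91), Kif4 (0.91), Tpx2 (0.91) and Kif15 (0.91). After the group means were removed, r lay between 0.89 (Kif15) and 0.95 (Melk). Only Ccna2 is among the 20 markers. The genes most like Ezh1 were Txnip (0.93), Rnf167 (0.91), Ndrg1 (0.87), Tor4a (0.86), Srgn (0.86), Mill2 (0.86), Prune2 (0.85), C1s2 (0.85), Klf15 (0.85) and Stk32b (0.85). These are descriptions over 17 points and the genes were picked for their r.

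Among the members, 45 pairs were compared over the same 17 cultures, with a median r of 0.11. Only 3 pairs reached 0.7: Suz12 with Mtf2 (r = 0.84, Spearman 0.83), Rbbp4 with Rbbp7 (r = 0.80, Spearman 0.57) and Jarid2 with Mtf2 (r = 0.71, Spearman 0.51). Without the 2 cultures farthest from the median of the first gene these were 0.71, 0.62 and 0.59. Ezh2 and Ezh1 ran in opposite directions (r = -0.52, and -0.45 without the 2 farthest), the lowest of the 45. For Ezh2, r was 0.67 with Rbbp4, 0.65 with Phf19, 0.19 with Eed and 0.20 with Suz12. The order of the last 3 rests on 2 cultures: without the 2 farthest in Ezh2 the values were 0.58, 0.42, 0.50 and 0.46.

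In the group comparisons no other gene of the Polycomb system examined here was called, but some were fitted further from 0 than any member. Kdm6b was at -0.72 ± 0.45 between genotypes at 3 months, and the interaction of Cbx7 was -1.02 ± 0.99. Of 5 further PRC2 factors (Phf1, Epop, Lcor, Lcorl and Ezhip), 4 were tested and 0 were called in any comparison. Ezhip, an inhibitor of the enzyme, had at most 0.0577 CPM in any culture. Epop, which links PRC2 to Elongin, had a slope of 0.71 ± 0.24 on the score (edgeR adjusted p = 0.373). Of 22 genes of PRC1, which ubiquitinates histone H2A, and of the H3K27 demethylases, all 22 were tested and 0 were called in any comparison. By age in WT, 1 of them, Phc3, was at an unadjusted p under 0.05 (-0.89 ± 0.34, edgeR adjusted p = 0.586).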

How the data were processed

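The authors deposited raw read counts per gene for 68 libraries, the 4 technical replicates of each of 17 cultures. Per the submitters' processing notes these counts came from Subread and featureCounts on mm10; versions, annotation, strand setting and the handling of multiply aligned reads are not given in the sources used here. The kit, TruSeq RNA v2 per the labels, does not mark strand. The 4 columns of a culture were summed. Identifiers were matched to RefSeq symbols on GRCm38.p6, and the 1904 unmatched ones held 0.573% of counts.

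All differences and slopes are from edgeR 4.0.16 (R 4.3.3), quasi-likelihood F-test, 2-sided, with TMM scaling, filterByExpr, 1 term per group over all 17 cultures and Benjamini-Hochberg adjustment over 14897 genes at 0.05. The labelled sex was left out because sex-linked transcripts do not match it in WT 12M. It was also uneven: in Het 12M only S17 was labelled male, and in Het 3M only S14 female. The WT groups were labelled evenly. Sex is therefore partly mixed with genotype at both ages and with age in Het. CPM in scores and patterns had a prior count of 2. The functions were tested on simulated counts less variable than these data, which checks the code and not what these cultures can detect. Alternatives were DESeq2 1.42.0, other scalings, no filter, sex or Y-linked terms, the score as a term, fewer groups and libraries left out. Lengths are GENCODE exon unions; the longest coding transcript was added after seeing the data.

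All 10 members are named, with Polycomb lists by counts and the 10 genes most like Ezh2 and Ezh1, predicted genes left out. The members and lists were chosen with earlier results of these data known.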

Additional observations from a re-analysis of the deposited data

Results flagged for a closer look

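Sets of 4 or 6 libraries were examined for 1 library far from the others, for each member in 3 groups and for the Ezh2 to Ezh1 ratio, 33 sets in all. Chance alone marks about 1 in 20, and 3 were marked. Rbbp4 was at 290.9 CPM in Het 12M S15, with the next library of that group at 193 CPM. Rbbp7 was at 224 CPM in WT 12M S13, with the next at 164 CPM. Ezh2 was at 9.17 CPM in WT 3M S12, with the next at 13.4 CPM.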

How the results depend on the processing

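No paired analysis was possible because the replicate numbers that groups share are technical replicates of 1 culture, and the culture numbers do not recur between groups. The count of members called was 0 in the 5 group comparisons under every alternative run. For the slope on the proliferation score it was 1, with 2 by DESeq2 and 2 with no group terms (Ezh2 and Phf19 both times), 0 without S6, S9 and S15, 0 with Mki67 in place of the score, and 0 to 1 when 1 library was left out (0 without WT 12M S2 or S6). Over all genes, the 151 called for this slope became 332 by DESeq2, 342 with no group terms, 16 with Mki67, and 59 to 199 without 1 library (59, 69 and 83 without WT 12M S2, S6 and S7). Most sign changes were of uncalled values near 0. Library totals alone gave -0.014 for Suz12 by age in Het and interactions of -0.025 for Ezh2 and -0.0074 for Rbbp4. The labelled sex as a term gave an interaction of -0.067 for Ezh2. The score as a term gave 0.21 for Ezh2 between genotypes at 12 months, -0.18 for Ezh2 and -0.0399 for Rbbp4 by age in WT, and -0.094 for Suz12 by age in Het. Without S6, S9 and S15 the genotype differences at 12 months were 0.083 for Ezh2 and -0.14 for Rbbp7, those by age in Het -0.035 for Rbbp4 and -0.077 for Phf19, the interactions -0.071 for Rbbp4 and -0.12 for Rbbp7, and the slope of Jarid2 0.036. The 2 groups alone gave -0.012 for Suz12 by age in Het. With no group terms the slope of Aebp2 was -0.0074, and with Mki67 slopes were -0.0300 for Rbbp4, -0.0397 for Rbbp7, 0.18 for Jarid2 and -0.0028 for Aebp2. Leaving out 1 library at a time crossed 0 at 3 months for Eed (-0.0088 to 0.21), Ezh1 (-0.19 to 0.36), Jarid2 (-0.26 to 0.049), Mtf2 (-0.27 to 0.33), Phf19 (-0.11 to 0.74), Rbbp7 (-0.10 to 0.059) and Suz12 (-0.35 to 0.10). At 12 months it did so for Ezh2 (-0.43 to 0.29), Mtf2 (-0.052 to 0.32), Rbbp4 (-0.034 to 0.24), Rbbp7 (-0.12 to 0.18) and Suz12 (-0.011 to 0.30). By age it did so in WT for Mtf2 (-0.28 to 0.31), and in Het for Eed (-0.044 to 0.17), Ezh1 (-0.44 to 0.11), Mtf2 (-0.069 to 0.31), Rbbp4 (-0.014 to 0.22) and Suz12 (-0.21 to 0.094). The interactions that crossed 0 were those of Ezh2 (-0.24 to 0.47), Mtf2 (-0.16 to 0.45), Rbbp4 (-0.15 to 0.12) and Rbbp7 (-0.093 to 0.20), and the slopes those of Jarid2 (-0.14 to 0.051) and Mtf2 (-0.081 to 0.18). The causes were not tested. No mean level of a member in a group moved by as much as its SD under another scaling. Leaving out 1 library cannot move a mean by a full SD, so that rule does not show how far a mean rests on 1 library. Depth limits Phf19 most, at 16 to 196 counts per culture.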
